A study of Mus musculus with 6 samples.

Results

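The genes examined here are 10 mouse genes of cytosolic DNA sensing and of the PYHIN family: Tmem173, Mb21d1, Aim2, Ifi202b, Ifi203, Ifi204, Ifi205, Mnda, Mndal and Pyhin1. These genes were chosen with earlier results of these data known. Probes were assigned to them through the RefSeq accession by which the array names each probe. In this way 8 of the 10 genes were found, on 13 of the 55681 probes of the array, and 7 of them were bright enough to be tested among 22340 genes. Array sequences that matched no gene symbol are counted as genes in that number and in the shares of all genes. Ifi203 and Ifi205 were matched to no probe and are not analysed here, and Aim2 was measured but was too dim for the test. In the current annotation Tmem173 is Sting1, Mb21d1 is Cgas, Mnda is Ifi211 and Pyhin1 is Ifi209.

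Liver RNA of male WT mice was compared with that of male L1-Tg mice on 3 arrays per group, to find basal differences between the genotypes under a control-fat diet. L1-Tg mice are hemizygous for a transgene that carries human NPC1L1, a cholesterol transporter, under the APOE promoter for expression in hepatocytes. The line, B6;D2-Tg(APOE-NPC1L1)20Lqyu/J, was bred to C57BL/6J over 8 or more generations, the WT mice were littermates, and the study's methods give the age of the mice as 6 to 12 weeks. Each array held RNA pooled from 2 or 3 mice, so that p-values refer to the spread between pools. The mouse Npc1l1 probe was well above background on 1 L1-Tg and 2 WT arrays and does not test for the human transgene. All 6 arrays lay on 1 slide scanned once, with the WT arrays in one row and the L1-Tg arrays in the other, so that slide row and genotype cannot be told apart. In bulk liver, a change in the number of cells of a type and a change of RNA per cell cannot be told apart either.

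DNA in the cytosol of a mammalian cell is read as a sign of infection or damage. The enzyme cGAS, encoded by Mb21d1, binds it and makes the cyclic dinucleotide cGAMP, which activates the membrane adaptor STING, encoded by Tmem173. STING recruits the kinase TBK1 and the factor IRF3, which switch on type I interferon genes. AIM2 binds DNA as well, but assembles an inflammasome with ASC and caspase-1. AIM2 and the Ifi200 proteins form the PYHIN family, named for a pyrin domain and a DNA-binding HIN domain, although not every member has both. Their genes lie side by side on mouse chromosome 1, many are known to be induced by interferon, and in liver the resident macrophages (Kupffer cells) are a known site of innate sensing.

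The promoters of the Ifi200 genes are shown first, because the members whose L1-Tg arrays all exceeded the WT arrays lie in this gene cluster. RefSeq sequences of build GRCm38.p6, covering 250 bases before to 50 after each transcription start, were searched on both strands for the core of the interferon-stimulated response element (ISRE), which is GAAA, any 2 bases and GAAA, and for the gamma-activated site (GAS), TTCNNNGAA. Neither motif contains the other. The table held promoters of 8 members and of 5 further Ifi200 genes. The lines give the 150 bases before the start, 5′ to 3′ on the strand of the gene, with matches to either motif in capitals.
Pyhin1 (chr1:173630709-173630858, plus strand): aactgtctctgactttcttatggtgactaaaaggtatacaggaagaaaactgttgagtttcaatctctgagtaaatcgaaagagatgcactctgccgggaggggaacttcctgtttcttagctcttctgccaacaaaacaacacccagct
Ifi214 (chr1:173535958-173536107, minus strand): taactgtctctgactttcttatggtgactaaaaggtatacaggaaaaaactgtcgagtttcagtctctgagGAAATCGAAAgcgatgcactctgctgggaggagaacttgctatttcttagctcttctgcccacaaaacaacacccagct
Ifi208 (chr1:173673515-173673664, plus strand): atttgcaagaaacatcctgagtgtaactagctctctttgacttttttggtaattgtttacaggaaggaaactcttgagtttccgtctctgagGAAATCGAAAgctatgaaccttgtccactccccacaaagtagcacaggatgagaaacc
Ifi207 (chr1:173741810-173741959, minus strand): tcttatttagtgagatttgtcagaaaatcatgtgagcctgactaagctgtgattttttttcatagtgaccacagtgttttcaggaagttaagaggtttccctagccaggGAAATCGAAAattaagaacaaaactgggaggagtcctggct
Mnda (chr1:173913047-173913196, minus strand): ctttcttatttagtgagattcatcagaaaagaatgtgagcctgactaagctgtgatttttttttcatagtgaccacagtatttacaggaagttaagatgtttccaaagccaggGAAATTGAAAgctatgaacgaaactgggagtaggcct
Ifi205 (chr1:174031756-174031905, minus strand): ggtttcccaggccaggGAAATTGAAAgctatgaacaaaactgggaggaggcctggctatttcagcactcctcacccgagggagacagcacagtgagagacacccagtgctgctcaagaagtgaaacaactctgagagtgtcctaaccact
Mndal (chr1:173880188-173880337, minus strand): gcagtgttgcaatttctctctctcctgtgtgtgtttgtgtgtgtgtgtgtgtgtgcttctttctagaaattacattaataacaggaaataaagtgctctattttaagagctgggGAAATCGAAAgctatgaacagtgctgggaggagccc
Ifi203 (chr1:173942493-173942642, minus strand): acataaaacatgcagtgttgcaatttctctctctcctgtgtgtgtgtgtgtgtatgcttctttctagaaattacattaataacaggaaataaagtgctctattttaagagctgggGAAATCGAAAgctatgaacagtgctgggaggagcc
Ifi202b (chr1:173982845-173982994, minus strand): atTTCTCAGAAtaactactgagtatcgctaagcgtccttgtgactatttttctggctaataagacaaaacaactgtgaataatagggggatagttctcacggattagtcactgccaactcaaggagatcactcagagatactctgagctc

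The ISRE core was found in 4 of the 8 members with a promoter (Ifi203, Ifi205, Mnda and Mndal) and in 5 of the 5 further Ifi200 genes (Ifi206, Ifi207, Ifi208, Ifi213 and Ifi214). It was held in a promoter by 3.99% of all 27025 genes in the table, or 3.44% of all 32851 promoters. In 8 of the 9 Ifi200 genes with a match it lay on the coding strand 35 to 79 bases before the start. In Ifi205 it began 134 bases before, with a further match on the other strand at base 24 of the transcript. A second start of Mndal had a match on the other strand, 54 bases before it. The GAS motif occurred in Ifi202b alone among these genes, beginning 148 bases before the start, and in 9.55% of all genes or 8.30% of all promoters. Aim2, Mb21d1 and Pyhin1 held neither motif within the window, and no promoter was given for Ifi204. Among the members whose L1-Tg arrays all exceeded the WT arrays (Ifi202b, Ifi204, Mnda and Pyhin1), the ISRE core was thus found in Mnda alone. Mndal held the core as well, but its groups overlapped. Outside the list, the brightest probe showed no overlap for Ifi207 and overlap for Ifi208, and both genes held the core. Whether the motif bears on the signals was not tested.

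Some of the 9 printed promoters are alike. Those of Mndal and Ifi203 shared an unbroken run of 96 bases, those of Ifi207 and Mnda 31 bases, and those of Pyhin1 and Ifi214 44 bases. In 28 of the 36 pairs the longest shared run was at most 14 bases, and Ifi202b shared at most 10 bases with any other. The exact form GAAATCGAAA, looked up after the first matches had been seen, was present in promoters of 7 cluster genes (Ifi203, Mndal, Ifi206, Ifi207, Ifi208, Ifi213 and Ifi214) and in 16 of all 32851 promoters. The promoters of Ifi206 and Ifi213 are not printed and are not among the 36 pairs. Both repeat long stretches of the Ifi208 promoter on either side of this form, so the 7 genes are not 7 unrelated matches. Pyhin1 differed from it by 1 base, G1T, counted from the 5′ end of GAAATCGAAA, 79 bases before its start. Mnda and Ifi205 differed from it by C6T, which leaves the general core intact. Whether a probe of this family also takes up RNA of another member was not tested.

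Signals are given below as relative signals, meaning the background-corrected probe intensity divided by the 75th percentile of its array, so that a value of 1 equals that percentile. Levels of different probes are not comparable. Differences are L1-Tg minus WT on the log2 scale with the standard error of limma, and p-values were adjusted over all genes tested (Benjamini-Hochberg). At an adjusted p of 0.05, limma called 0.13% of all genes, 0.121% as higher (27 genes) and 0.00895% as lower (2 genes) in L1-Tg, and 0 of the 7 members tested. The adjusted p of the members ranged from 0.394 to 0.970. At an unadjusted p under 0.05, limma picked 4 of the 7 members, all higher in L1-Tg, against 8.87% of all genes (4.55% higher and 4.32% lower). The methods' t-test, without moderated variances, picked 3 of the 7 at an unadjusted p under 0.05, beside 1839 of all 22340 genes tested. After adjustment it picked 0 of the members and 0 of all genes. The next paragraphs therefore describe levels and overlap between the pools and not called changes.

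**Figure D1:**
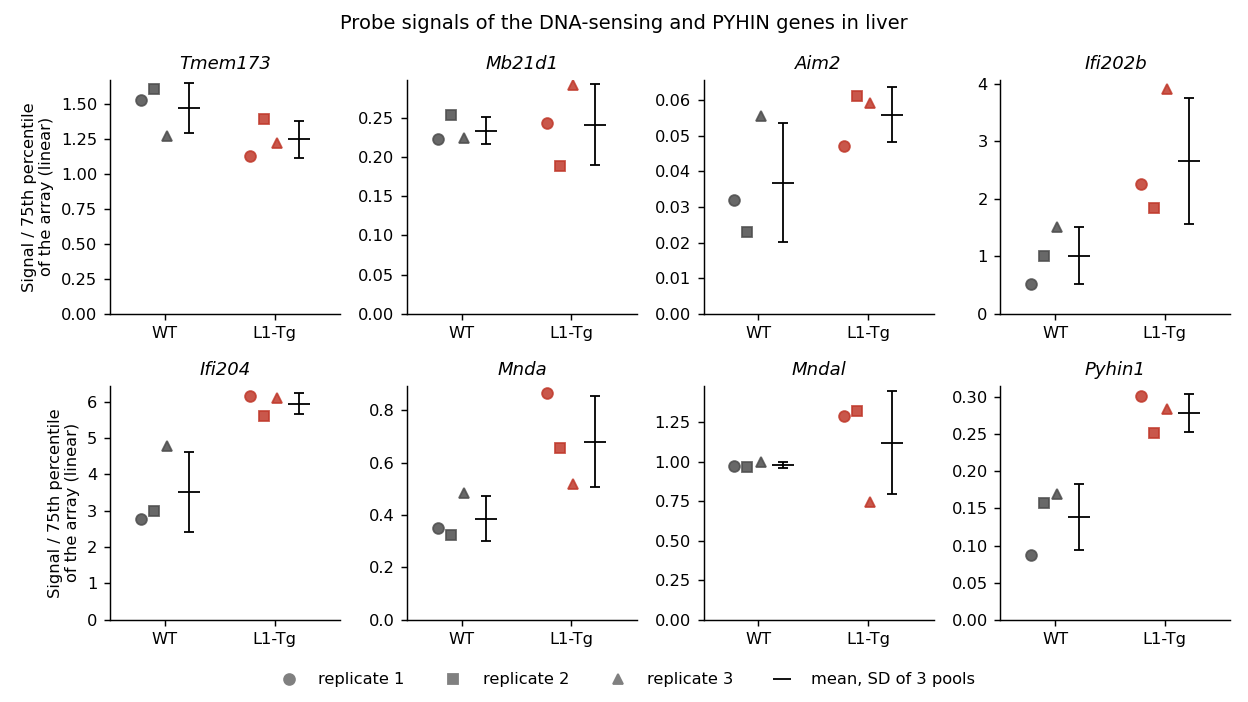
Relative signals (y axis, linear, signal divided by the 75th percentile of the array) of the 8 genes with a probe, for 3 WT and 3 L1-Tg arrays, with the mean and SD of each group. The 3 L1-Tg points lie above the 3 WT points for Ifi202b, Ifi204, Mnda and Pyhin1, while the groups overlap for Tmem173, Mb21d1, Aim2 and Mndal.

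Tmem173, the adaptor of the pathway, was the only tested member with a lower mean in L1-Tg livers. Its relative signals were 1.13, 1.39 and 1.22 on the L1-Tg arrays and 1.53, 1.61 and 1.27 on the WT arrays. The groups overlapped, since the third WT pool lay below the second L1-Tg pool. The log2 difference was −0.23 (SE 0.134, n = 3 arrays per group, adjusted p = 0.630 in limma). With 1 array left out at a time it ranged from −0.34 to −0.16.

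Mb21d1, the cGAS gene, showed nearly equal means. Its brightest probe read 0.244, 0.188 and 0.293 in L1-Tg livers and 0.223, 0.253 and 0.225 in WT livers. The WT values lay entirely within the L1-Tg range, and the log2 difference of 0.03 (SE 0.173, adjusted p = 0.970 in limma) changed sign when single arrays were left out, between −0.12 and 0.19. A second probe gave −0.01 (SE 0.245), and the third was well above background on no array.

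Aim2, which binds DNA for the inflammasome, was near the limit of the array. Its relative signals were 0.0472, 0.0614 and 0.0593 in L1-Tg livers and 0.0319, 0.0231 and 0.0556 in WT livers. It was well above background on 2 of the 3 L1-Tg arrays and 1 of the 3 WT arrays. The groups overlapped, through the third WT pool. The log2 difference of 0.69, given without a test, became −0.07 when the background was corrected by normexp with an offset of 50. That offset is added to every intensity and draws the differences of dim probes towards 0. Here and below, a smaller difference after normexp therefore cannot be credited to background alone. With overlapping groups and signals this dim, no direction was assigned to Aim2.

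Ifi204 encodes p204, known as a nuclear DNA-binding regulator and partner of STING. Its relative signals were 6.15, 5.62 and 6.10 in L1-Tg livers and 2.77, 2.997 and 4.79 in WT livers. The L1-Tg pools lay close together, and the spread came from the WT pools, of which the third approached the transgenic level. The log2 difference was 0.80 (SE 0.214, 1.74-fold, n = 3, adjusted p = 0.438 in limma). With 1 array left out at a time the difference ranged from 0.65 to 1.05, and the adjusted p in limma from 0.0583 to 0.935. The lowest p came without WT replicate 3, the WT pool nearest to the L1-Tg pools. It was the smallest adjusted p of any member under any setting tried.

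Ifi202b encodes a protein with HIN domains and no pyrin domain that is known to counteract AIM2. Its relative signals were 2.25, 1.83 and 3.90 in L1-Tg livers and 0.518, 1.01 and 1.4998 in WT livers. The difference was the largest among the members, 1.45 (SE 0.446, 2.74-fold, adjusted p = 0.484 in limma), and so was its standard error, with pools far apart within both groups. A second probe ran alongside, at 2.12, 1.86 and 3.56 against 0.473, 1.00 and 1.54, with a difference of 1.42 (SE 0.460). The difference remained between 1.04 and 1.80 when single arrays were left out.

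Mnda, an Ifi200 gene named after the human myeloid cell nuclear differentiation antigen, read 0.864, 0.656 and 0.518 in L1-Tg livers and 0.350, 0.322 and 0.482 in WT livers. The gap between the lowest L1-Tg and the highest WT pool was narrow, 0.518 against 0.482. The log2 difference was 0.81 (SE 0.234, 1.75-fold, adjusted p = 0.470 in limma), with a range of 0.62 to 0.99 over the omissions of 1 array.

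Pyhin1 had the smallest p of the members, with an unadjusted p of 0.0058 and an adjusted p of 0.394 in limma. Its brightest probe read 0.301, 0.251 and 0.284 in L1-Tg livers and 0.0869, 0.157 and 0.170 in WT livers. The 3 L1-Tg pools were alike and all above the WT pools, among which the first was the lowest. The log2 difference of 1.07 (SE 0.262, 2.10-fold) was 0.76 without that pool. It was 0.61 after normexp correction, with an adjusted p of 0.160. A second, dimmer probe, well above background on 3 L1-Tg arrays but 2 WT arrays, differed by 0.39 (SE 0.154), and the third was well above background on no array.

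Mndal, a gene related to Mnda in the same cluster, did not follow the other tested PYHIN genes. Its relative signals were 1.29, 1.32 and 0.745 in L1-Tg livers and 0.972, 0.970 and 0.999 in WT livers. A pair of L1-Tg pools lay above the WT pools and the third lay below them. The log2 difference was 0.15 (SE 0.229, adjusted p = 0.842 in limma), and it ranged from 0.00 without L1-Tg replicate 2 to 0.42 without L1-Tg replicate 3.

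Across the members, 6 of the 7 tested genes had a higher mean in L1-Tg livers, compared with 43.1% of all genes tested. In 4 of the 7 every L1-Tg pool exceeded every WT pool, compared with 7.28% of all genes, and in 0 of the 7 every L1-Tg pool was below, compared with 8.63% of all genes. Those 4 genes belong to the 5 tested PYHIN genes. Because the members were chosen with earlier results of these data known, these shares only describe the list. The median difference was 0.80 over the members and −0.03 over all genes. With the array median in place of the 75th percentile, the median of all genes moved by 0.11, and the same 6 members stayed above 0. The difference index of the study's methods, (M1 − M2)/(SD1 + SD2) on linear signals with a threshold of 0.7, needs no test. It lay above 0.7 for 5 of the 8 measured members. The share was 8.69% of all 37069 genes with an index, dim ones included, and 11.8% of the genes tested in limma. The 5 members were Pyhin1 at 2.01, Ifi204 at 1.73, Mnda at 1.13, Ifi202b at 1.04 and Aim2 at 0.78, of which Aim2 was too dim for the test. Tmem173 lay just below −0.7, at −0.71, where 21.6% of all genes had an index under −0.7. In either direction 6 of the 8 members passed, against 30.2% of all genes.

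The order of the pools was similar among the 4 genes without overlap. WT replicate 3 was the highest WT pool for all 4 genes, and WT replicate 1 the lowest for 3 of them. L1-Tg replicate 1 was the highest L1-Tg pool for 3 genes, and L1-Tg replicate 2 the lowest for 3. Over all genes, WT replicate 3 was the highest of its group for 30.1% and WT replicate 1 the lowest for 28.5%.

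**Figure D2:**
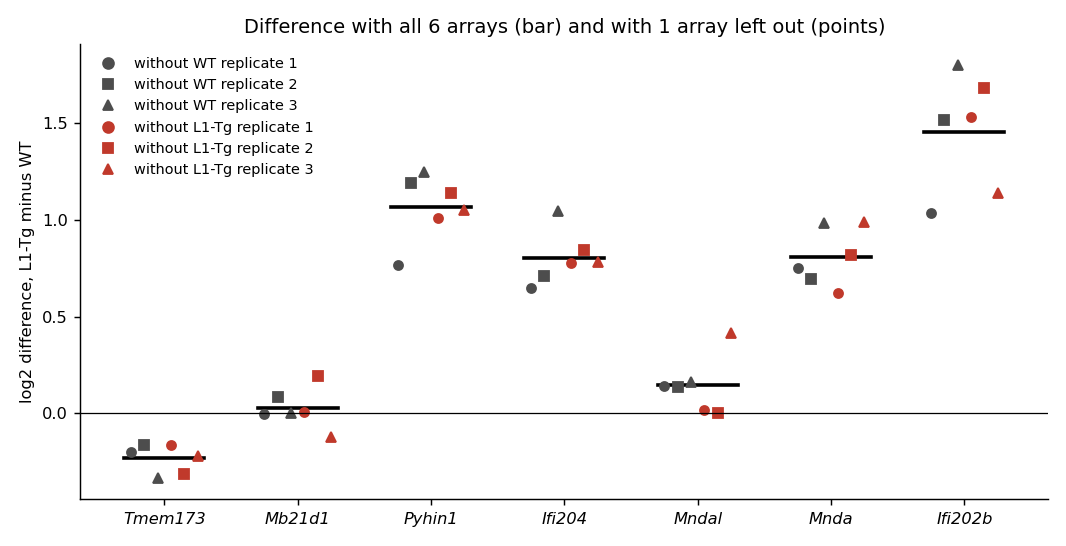
Log2 difference (y axis, L1-Tg minus WT) of the 7 tested members with all 6 arrays (bar) and after leaving out each array (points). Ifi202b, Ifi204, Mnda and Pyhin1 stay above 0.6 in every omission, Tmem173 stays below 0, and Mb21d1 crosses 0.

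Of the Ifi200 genes outside the list, 4 were on the array: Ifi207, Ifi208, Ifi213 and Ifi214. The brightest probe of Ifi207 read 2.01, 1.81 and 2.02 in L1-Tg livers and 0.861, 0.938 and 1.71 in WT livers, a pattern close to that of Ifi204. Its difference was 0.80 (SE 0.262, adjusted p = 0.499 in limma), although a dimmer Ifi207 probe gave −0.19 (SE 0.285). The brightest Ifi208 probe showed overlapping groups, with a difference of 0.08 (SE 0.0946, adjusted p = 0.799 in limma). Further Ifi208 probes gave 0.98 (SE 0.140, adjusted p = 0.161 over all probes in limma) and 0.53 (SE 0.184), both without overlap. The probes of this gene therefore disagree.

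Ifi213 was well above background on no array. Ifi214 was well above background on 2 of the 3 L1-Tg arrays and none of the WT arrays, so it was not tested. Its relative signals were 0.0251, 0.0596 and 0.0615 in L1-Tg livers and 0.0129, 0.0116 and 0.0277 in WT livers. The log2 difference of 1.49, given without a test, was 0.25 after normexp correction. In the whole cluster, Aim2 included, 10 genes had a probe and 7 were tested, of which 5 showed no overlap in the higher direction, against 7.28% of all genes. Of its 12 tested probes, 11 had a higher mean in L1-Tg livers, with differences from −0.19 to 1.45.

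**Figure D3:**
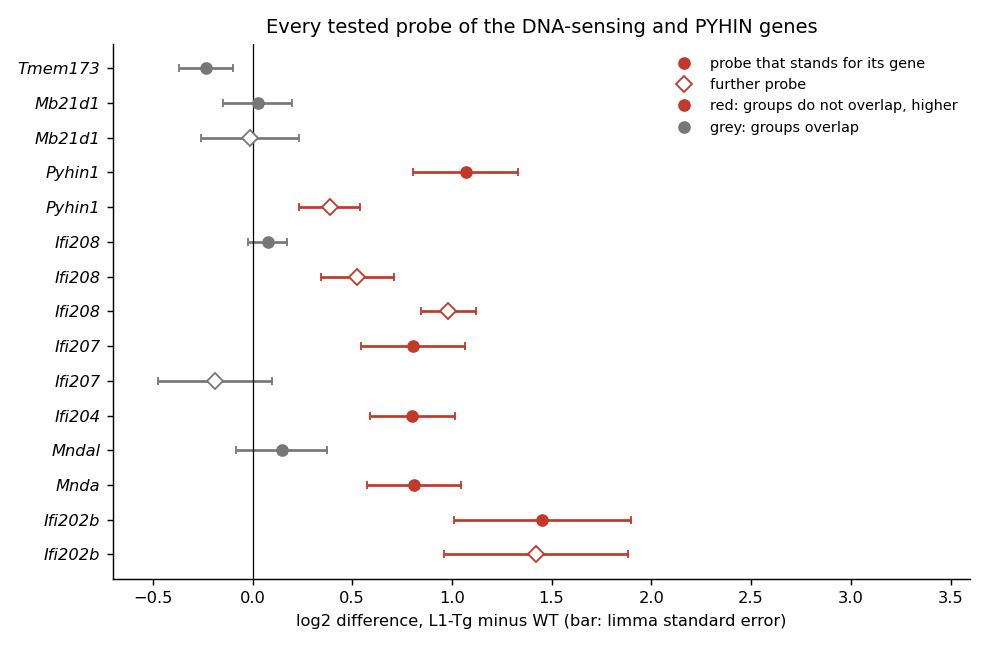
Log2 difference (x axis, L1-Tg minus WT, bar: limma standard error) of every tested probe of the members and of Ifi207 and Ifi208. Red marks the probes whose L1-Tg arrays all lie above the WT arrays, and open diamonds mark further probes of a gene. Probes of Ifi202b and Pyhin1 lie on the same side of 0, whereas those of Ifi207 lie on both sides.

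The genes on either side of the cluster were examined in their order in GRCm38.p6. Of 46 neighbours, 45 were on the array and 31 were tested. Of these, 13 had a higher and 18 a lower mean in L1-Tg livers, the median difference was −0.11 and limma called 0. On the Aim2 side, Cadm3, an adhesion molecule, differed by −0.24 (SE 0.118), and Ackr1, a chemokine-binding receptor, by 0.35. On the other side, Fmn2, an actin nucleator, differed by −0.28. Ly9, a SLAM-family receptor of lymphocytes, was the one neighbour with an unadjusted p under 0.05, with 0.255, 0.186 and 0.220 against 0.157, 0.174 and 0.175 and a difference of 0.38 (SE 0.136, adjusted p = 0.532 in limma). The highest difference among the tested neighbours was that of Slamf9, another SLAM-family gene, at 0.76 (SE 0.356), below those of Ifi202b, Pyhin1, Mnda, Ifi207 and Ifi204. The lowest was that of Nhlh1, at −1.35 (SE 1.05), which in size exceeded every tested cluster gene but Ifi202b. Nhlh1 read 14.2 on WT replicate 2 and 0.768 to 1.15 on the other arrays.

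**Figure D4:**
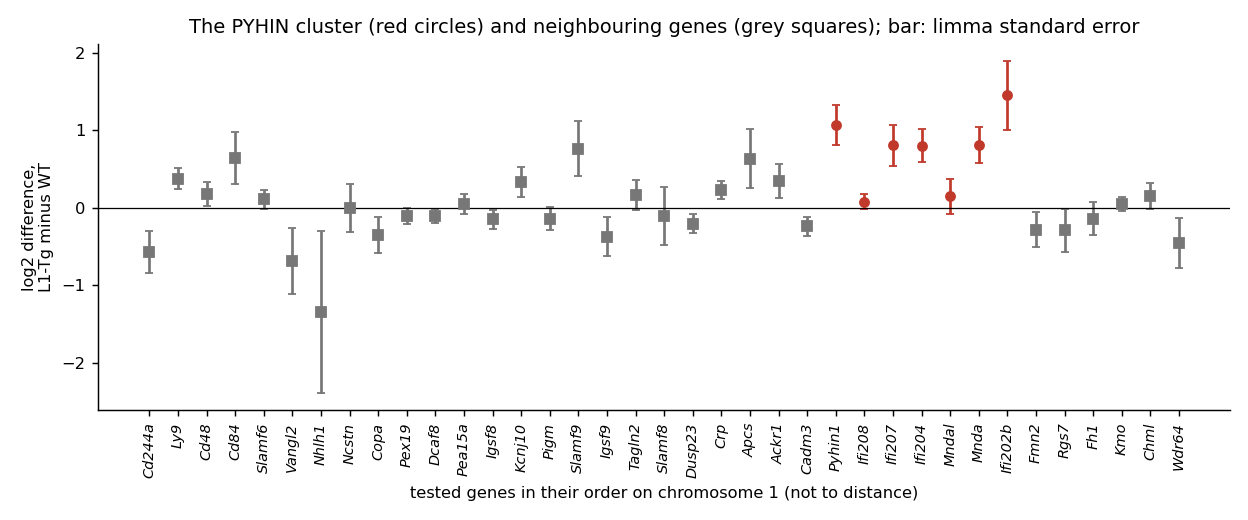
Log2 difference (y axis, L1-Tg minus WT, bar: limma standard error) of tested genes that are reported here, in their order along chromosome 1 (x axis, not to distance), with the PYHIN cluster as red circles and the neighbouring genes as grey squares. Ifi202b, Pyhin1, Mnda, Ifi204 and Ifi207 lie between 0.80 and 1.45, and Cadm3, Ackr1 and Fmn2 beside the cluster lie between −0.28 and 0.35.

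The genes that act after STING were taken next. Of 30 listed genes of STING signaling 27 were tested, 14 higher and 13 lower, and limma called 0. Their median difference was 0.09, and 4 had an unadjusted p under 0.05, all higher, against 4.55% of all genes. The groups did not overlap for 6 higher and 2 lower genes, against 7.28% and 8.63% of all genes. Usp18, an ISG15 protease that limits interferon receptor signaling, read 13.8, 11.9 and 19.0 in L1-Tg livers and 4.04, 5.63 and 6.49 in WT livers. Its difference of 1.47 (SE 0.239, adjusted p = 0.199 in limma) was not past the threshold. Traf3, an adaptor for TBK1 activation, differed by 0.57 (SE 0.115, adjusted p = 0.300), and the chemokine gene Cxcl10 by 1.35 (SE 0.430, adjusted p = 0.494), both without overlap. Irf7, an interferon-induced factor that amplifies interferon expression, had the largest difference of the list, 1.66 (SE 0.610, adjusted p = 0.536). It read 11.3, 8.08 and 12.8 in L1-Tg livers and 1.74, 2.32 and 9.11 in WT livers, and its groups overlapped through WT replicate 3. The kinase gene Tbk1 differed by 0.28 (SE 0.116), with every L1-Tg pool above the WT pools, and Irf3 by −0.13 (SE 0.0828), with every L1-Tg pool below. Sec24c, a coat protein of vesicles leaving the endoplasmic reticulum, had the brightest probe of the list and differed by −0.08. The interferon genes Ifnb1 and Ifna4 were well above background on no array. With the array median as the scale, which shifts every gene by the same 0.11, 22 of the 27 genes had a higher mean, beside 66.4% of all genes.

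Of 19 genes that act on cGAS or carry cyclic dinucleotides, 16 were tested, 7 higher and 9 lower, with a median of −0.03. Limma called 0, with an unadjusted p under 0.05 for 1 higher and 1 lower gene. Pqbp1, known to link cGAS to retroviral DNA, differed by −0.41 (SE 0.114, adjusted p = 0.456) and Usp14, a deubiquitinase that stabilises cGAS, by 0.30 (SE 0.109). Lrrc8c, a subunit of an anion channel that passes cGAMP, differed by −0.34. The gap junction gene Gjb1 had the brightest probe and differed by −0.05. With the array median as the scale, 12 of these 16 genes had a higher mean, beside the same 66.4% of all genes. Of the 15 nucleases that limit cytosolic DNA, 14 were tested, 9 higher and 5 lower, with a median of 0.10, 0 called and 0 with an unadjusted p under 0.05. Rnaseh2c, a subunit of RNase H2, differed by −0.19, the secreted DNase gene Dnase1l3 by −0.28, the exonuclease gene Pld4 by 0.45 and the lysosomal Dnase2a, with the brightest probe, by −0.19.

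The other DNA sensors lay on both sides of 0. All 23 were tested, 13 higher and 10 lower, with a median of 0.01. Limma called 0, and Zbp1 was the 1 gene with an unadjusted p under 0.05. Zbp1, a sensor of left-handed nucleic acid, read 8.85, 8.67 and 12.0 in L1-Tg livers and 2.82, 4.06 and 7.66 in WT livers. Its groups did not overlap, and the difference was 1.13 (SE 0.364, adjusted p = 0.497 in limma). WT replicate 3 was again the highest WT pool. Polr3g, an RNA polymerase III subunit, differed by −0.40, the helicase gene Dhx9 by −0.27 and Tlr9, the endosomal DNA receptor, by 0.00.

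In the AIM2 inflammasome list 18 of 20 genes were tested, and 16 had a higher mean in L1-Tg livers, against 43.1% of all genes. Limma called 0, and 4 had an unadjusted p under 0.05, all higher, against 4.55% of all genes. In 4 of the 18 every L1-Tg pool exceeded every WT pool, against 7.28% of all genes. The median difference was 0.28. Panx1, a channel linked to inflammasome activation, read 0.417, 0.416 and 0.480 in L1-Tg livers and 0.332, 0.323 and 0.293 in WT livers, a difference of 0.47 (SE 0.106, adjusted p = 0.345 in limma). Casp1, the caspase that matures interleukin-1β, read 1.55, 1.28 and 1.38 against 0.745, 0.986 and 1.25, a difference of 0.52 (SE 0.199). Nlrp3, another inflammasome sensor, differed by 0.31, but by −0.03 after normexp correction. Irf1, a factor known to drive Aim2 activation in infection, had the brightest probe and differed by −0.10.

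**Figure D5:**
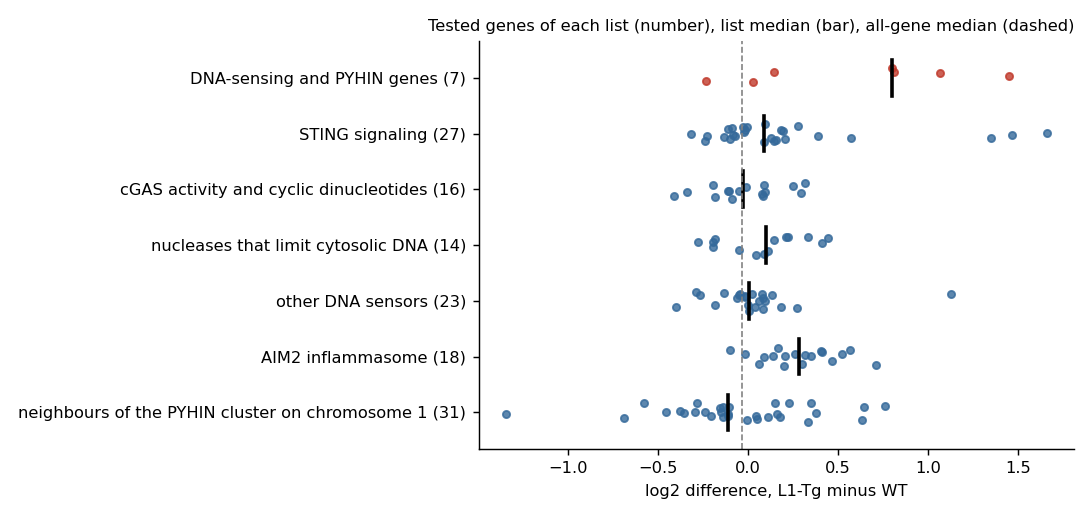
Log2 difference (x axis, L1-Tg minus WT) of each tested gene (points) in the member list and 6 further lists, with the list median (black bar) and the median of all genes (dashed line). The members have a median of 0.80, the AIM2 inflammasome list 0.28, and the neighbours of the cluster −0.11.

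Of the Kupffer cell markers, all 11 on the array had a higher mean in L1-Tg livers, 0 were called by limma, 0 had an unadjusted p under 0.05, and the median difference was 0.32. Their summed relative signal was 206, 174 and 192 in L1-Tg livers and 110, 147 and 204 in WT livers, so the groups overlapped. WT replicate 1 was the lowest and WT replicate 3 the highest WT pool, the same order as for Ifi204, Ifi202b and Pyhin1. Without WT replicate 1 the median of the markers was 0.13, with 9 of 11 higher, and the differences of Ifi204, Ifi202b and Pyhin1 were 0.65, 1.04 and 0.76. Cd5l, a macrophage-secreted scavenger protein, had the brightest probe of the markers and differed by 0.63 (SE 0.266, adjusted p = 0.560 in limma).

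Markers of monocytes and recruited macrophages had a higher mean for 10 of 11 genes, with a median of 0.61 and a summed signal of 22.8 to 29.0 in L1-Tg against 20.4 to 32.3 in WT livers. In 4 of the 11 every L1-Tg pool exceeded every WT pool, against 7.28% of all genes. An unadjusted p under 0.05 in limma was reached by 5 of the 11, all higher, against 4.55% of all genes. After normexp correction 9 of 11 were higher, with a median of 0.30. With signals well above background required on all 6 arrays, 8 were tested and 7 were higher, with a median of 0.52. In the main fit limma called 1 of the 11 markers, Gpnmb, higher in L1-Tg (adjusted p = 0.0271), from dim signals that were well above background on no WT array. Gpnmb thus entered the test only through the L1-Tg arrays, and its difference of 2.90 was 0.59 after normexp correction. The part of macrophage number in the values of the PYHIN genes was not tested. Lymphocyte markers had a higher mean for 6 of 10 tested genes (median 0.22), although their sum ranged from 91.1 to 109 in L1-Tg against 102 to 238 in WT livers, a sum carried by the bright Cd4 probe. After normexp correction 4 of 10 lymphocyte markers were higher (median −0.01), and 3 of 7 with the filter on all 6 arrays (median −0.06). Neutrophil markers had a higher mean for 4 of 5 tested genes (median 0.54), with Cxcr2 well above background on no array, and their sum of 163 to 180 against 192 to 209 was carried by the Csf3r probe. The neutrophil median was 0.21 after normexp correction, with 4 of 5 higher. Sinusoidal endothelial markers summed to 120 to 124 against 114 to 125, stellate cell markers to 54.5 to 76.0 against 60.7 to 71.8, and hepatocyte markers to 7022 to 8594 against 7719 to 8592.

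The genes whose log2 signals followed the members most closely over the 6 arrays were looked up among 13916 named genes, as a description in which all genes share the same 6 pools. For Ifi204 they were Tacc2 (r = 0.997), Cd83 (r = 0.995) and Ifi207 (r = 0.994), and 135 genes exceeded 0.95. The correlation of Ifi204 was 0.92 with Ifi202b, 0.92 with Pyhin1, 0.88 with Mnda, 0.21 with Mndal and −0.88 with Tmem173. For Tmem173 close genes were Tle5 (r = 0.997) and Arsg (r = 0.997), and for Mb21d1 they were Ccdc43 (r = 0.972), Slc45a4 (r = 0.971) and Pde3a (r = 0.968). With 6 arrays, many genes reach such values.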

How the data were processed

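Total RNA from liver, pooled from 2 or 3 mice, was labeled with Cy3 and hybridized by the authors to an Agilent mouse gene expression array. The deposited processed signal is a background-subtracted intensity on the linear scale from Feature Extraction 10.10.1.1, without scaling between arrays. The deposited marks for spots well above background (53.1% to 59.2% of probes per array) and non-uniform spots are scores of 0 or 1. A deposited matrix of intensity values equals these signals times 1 factor per array. No spot was saturated. Precision is limited by having 3 arrays per group.

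Control spots were left out, non-uniform spots were set missing and spots of a repeated probe were averaged. The log2 of the array's 75th percentile was subtracted. Probes were named through RefSeq accessions (27235 of 28685 matched). Any other probe kept the name that the array gives its sequence, and that name was counted as a gene. A gene was represented by its brightest passing probe, and it was tested if every array of 1 or both groups measured it well above background. Groups follow the genotype in the labels. Two-sided moderated tests were run with limma 3.58.1 (R 4.3.3), with Benjamini-Hochberg adjustment over all genes tested, and the pipeline was tested on simulated data. Alternatives covered scaling, background, filters, probes, test, replicate numbers and single arrays.

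The members and lists were chosen with earlier results of these data known. Named genes were all members, from each list the called genes, the 3 smallest p-values and the brightest gene, the other Ifi200 genes on the array, the nearest neighbours and the most similar genes. Tbk1, Irf3, Irf7, Ifnb1, Ifna4, Slamf9, Nhlh1 and the cell type markers were named outside this rule after their values were seen. A few items that this rule would name are not reported here.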

Additional observations from a re-analysis of the deposited data

How the results depend on the processing

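No member passed the adjusted threshold under any of 19 alternatives, and the differences of Ifi202b, Ifi204, Mnda, Mndal, Pyhin1 and Tmem173 kept their direction in all of those that gave them. Mb21d1 reversed without L1-Tg replicate 3 (−0.12), without WT replicate 1 (−0.0058) and without WT replicate 3 (−1.7e-05), within a range of −0.12 to 0.19 over all omissions. The count of genes called over all genes was 29, and 10 without a filter on dim probes. It was 0 by the plain t-test after adjustment (1839 at an unadjusted p under 0.05), and 15 to 36 with 1 array left out, and the cause was not tested. Same-numbered arrays deviated together no more (r = −0.16, 0.11 and 0.02) than differently numbered ones (r from −0.17 to 0.17). With 3 arrays per group this check cannot settle whether the replicate numbers pair any pools. A fit with the replicate number as a block called 11 genes and no member. The count of members past the difference index was 6 of 8, against 30.2% of all genes. It was 2 when a change of at least 2-fold was also required, and the share of all genes under that rule is not given here. With the array median as the scale, 22 genes of the STING signaling list and 12 of the list on cGAS and cyclic dinucleotides were higher, since that scaling adds the same 0.11 to every gene. Signals near background limit Aim2, Ifi213 and Ifi214, whose differences depend on the background correction and the offset that it adds.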
